A study of Mus musculus with 15 samples.

Results

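Lysosomal glycoside hydrolases are acid enzymes that cut sugar residues from glycolipids, glycoproteins, glycosaminoglycans and glycogen. The 7 genes described here are Gusb, Hexa, Glb1, Gla, Gaa, Man2b1 and Neu1, chosen by symbol out of 18193 genes named on the array, and 14 probe sets name 1 of them alone. The probe set with the highest mean represented each gene. Of the 7 genes, 6 lay above the filter on low values and were tested among 11925 genes, and Neu1 did not.

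All mice were C57BL/6 ApoE-/- animals, the chow group included, so every group lacks the apolipoprotein that clears remnant lipoproteins and none is wild type. Foam cells, the lipid-filled macrophages of arterial lesions, were cut out of sections of the aortic sinus by laser, with 5 arrays per group. The CHOW group ate chow until week 22, and the 14w-WD group ate chow for 8 weeks and a western-type diet from week 8 to week 22. The 2w-WD group ate the western-type diet for 2 weeks: its sample labels put 20 weeks of chow before it, while the series text places it in weeks 22 to 24, and the group's age thus has no settled value. No label ties an array to an animal or says whether animals were pooled. A p-value here therefore rests on the spread among samples within groups alone, part of which may be technical. That spread was pooled over the 3 groups and moderated with that of other genes. The comparisons ask how transcripts of foam cells differ between chow, brief and long western-type feeding.

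In the lysosome, chains of sugars are taken apart from the free end, each enzyme recognising 1 kind of residue and linkage, so that the loss of a single enzyme leaves its substrate to pile up. Most of these enzymes are tagged with mannose 6-phosphate in the Golgi apparatus and carried to the lysosome by receptors for that tag, and some need a partner protein that protects the enzyme or presents its lipid substrate. Macrophages are rich in lysosomes because they digest engulfed lipoproteins, dead cells and matrix. Many lysosomal genes share a short promoter element, named CLEAR, which is bound by the transcription factor TFEB and its relatives and is built around the letters CACGTG.

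The sequences upstream of the start sites are shown for the 3 genes that hold CACGTG there (Gla, Glb1 and Gaa) and for Gusb, the only member that passed the expression test, which does not. Each is the 250 bases before the gene's start on its own strand, 5′ to 3′, from RefSeq on build GRCm38.p6, where all 7 genes were matched. Capitals mark CACGTG, which reads the same on both strands. The windows are chrX:134601006-134601255 on the minus strand for Gla, chr9:114400828-114401077 on the plus strand for Glb1, chr11:119267713-119267962 on the plus strand for Gaa and chr5:130003050-130003299 on the minus strand for Gusb.
Gla: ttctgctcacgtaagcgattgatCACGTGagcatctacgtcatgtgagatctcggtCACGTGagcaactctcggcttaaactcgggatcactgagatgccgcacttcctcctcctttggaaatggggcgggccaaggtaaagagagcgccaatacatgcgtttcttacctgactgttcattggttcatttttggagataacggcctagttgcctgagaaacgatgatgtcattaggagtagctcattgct
Glb1: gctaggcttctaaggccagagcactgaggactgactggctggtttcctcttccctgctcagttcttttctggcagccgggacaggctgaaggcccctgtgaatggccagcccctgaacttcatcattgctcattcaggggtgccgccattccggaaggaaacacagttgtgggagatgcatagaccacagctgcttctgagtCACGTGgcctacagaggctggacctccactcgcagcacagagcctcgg
Gaa: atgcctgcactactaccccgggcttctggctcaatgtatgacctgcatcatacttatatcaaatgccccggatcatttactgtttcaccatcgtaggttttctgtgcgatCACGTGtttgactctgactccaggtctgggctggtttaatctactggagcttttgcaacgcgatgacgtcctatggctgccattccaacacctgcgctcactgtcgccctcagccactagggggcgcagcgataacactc
Gusb: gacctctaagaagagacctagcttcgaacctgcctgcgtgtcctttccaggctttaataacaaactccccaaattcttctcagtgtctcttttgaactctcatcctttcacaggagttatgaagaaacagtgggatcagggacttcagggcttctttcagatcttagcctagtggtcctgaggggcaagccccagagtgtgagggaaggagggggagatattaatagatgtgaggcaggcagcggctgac
Gla held 2 copies, 227 to 222 and 194 to 189 bases before the start, and both lay within the longer palindrome TCACGTGA. Glb1 held 1 copy 48 to 43 bases before the start, and Gaa held 1 copy 140 to 135 bases before it. The corresponding windows of Gusb, Hexa, Man2b1 and Neu1 did not hold these letters. Of 32851 promoter windows of the same length, 6.02% held CACGTG and 0.785% held TCACGTGA, which contains it. The members' counts were 3 of 7 and 1 of 7. A match describes letters only, and a window without them says only that these letters are not in it.

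Values are intensities on a linear scale, with array medians of 31.7 to 38.2, and fold changes refer to log2(intensity + 16), which understates changes of dim genes. Of 15 macrophage markers, 13 passed the filter (Itgam and Spi1 did not), and their summed intensity was 82325 to 117453 in CHOW, 78742 to 97104 in 2w-WD and 89306 to 107557 in 14w-WD. All 16 heart muscle markers were above the filter too, at summed intensities of 2991 to 81260, 65447 to 133877 and 32557 to 97036, so the captured material also carried transcripts of heart muscle. Smooth muscle markers summed to 9258 to 16117, 9526 to 10991 and 5618 to 12887, and neutrophil markers reached 15550 on 2w-WD replicate 5. In such bulk samples, fewer cells of a type and less RNA per cell cannot be told apart.

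Across the 3 groups the mean levels of the tested hydrolases were lowest after 2 weeks of the western-type diet. The 2w-WD mean was the lowest for 6 of 6 tested genes, against 50.5% of all genes tested. The 6 genes share the arrays and are not independent readings: their Pearson correlations within groups ran from 0.346 (Gaa and Man2b1) to 0.871 (Hexa and Man2b1). Neu1, which was not tested, had its lowest mean in CHOW. Gusb was the only member past the test in any comparison: it was 5.24-fold higher in 14w-WD than in 2w-WD. Hexa varied least, with group means within 0.15 log2 units of each other and 0 comparisons past the test. Neither western-type diet group differed from CHOW past the threshold for any member, by limma with Benjamini-Hochberg adjustment over all genes.

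Gusb encodes β-glucuronidase, which removes terminal glucuronic acid from glycosaminoglycans such as heparan, dermatan and chondroitin sulfate. Its intensities on replicates 1 to 5 were 1378, 948, 533, 574 and 196 in CHOW. In 2w-WD they were 266, 187, 215, 27.2 and 98.5. In 14w-WD they were 1177, 1044, 689, 379 and 720. Every 14w-WD array was above every 2w-WD array, the CHOW arrays reached from within the 2w-WD range to above the 14w-WD range, and 2w-WD replicate 4 was by far the dimmest. On the log2 scale the CHOW arrays averaged 9.28 ± 1.02 (SD, n = 5), those of 2w-WD 7.19 ± 1.09 and those of 14w-WD 9.58 ± 0.62.

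For Gusb, 14w-WD exceeded 2w-WD by 2.39 log2 units (SE 0.54, 95% interval 1.25 to 3.53, limma adjusted p = 0.0181), 2.16 above the change of the median gene. Against CHOW, the 2w-WD value was -2.09 (SE 0.54, 95% interval -3.24 to -0.95), with an unadjusted p of 0.00124 in limma. That change did not pass after adjustment over 11925 genes (limma adjusted p = 0.480), and 0 of them passed in that comparison. The 14w-WD level differed from CHOW by 0.30 (95% interval -0.85 to 1.44, limma adjusted p = 0.796). Leaving out any single array kept the change between 1.95 and 2.63, but ended the call in 2 of 15 fits. Leaving out 14w-WD replicate 1 gave a change of 2.23 (adjusted p = 0.0594), and leaving out 14w-WD replicate 3 gave 2.42 (adjusted p = 0.0511). With the mean macrophage marker level of each array as a covariate the change was 1.16 (adjusted p = 0.433), and with the percentage of bright probe sets (intensity over 100) it was 1.31 (adjusted p = 0.583). In both of these fits 0 of all genes passed. The percentage of bright probe sets itself was 20.4 to 24.7 in CHOW, 18.2 to 25.7 in 2w-WD and 22.5 to 27.2 in 14w-WD. It was lowest on 2w-WD replicate 4 and, in 2w-WD, highest on replicate 1. With heart muscle markers as the covariate the Gusb change was 2.49 (adjusted p = 0.0193). The second Gusb probe set, 1430332_a_at, stayed below the filter on average, at 5.88 to 31.2 over all 15 arrays, so it gives no second reading.

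**Figure D1:**
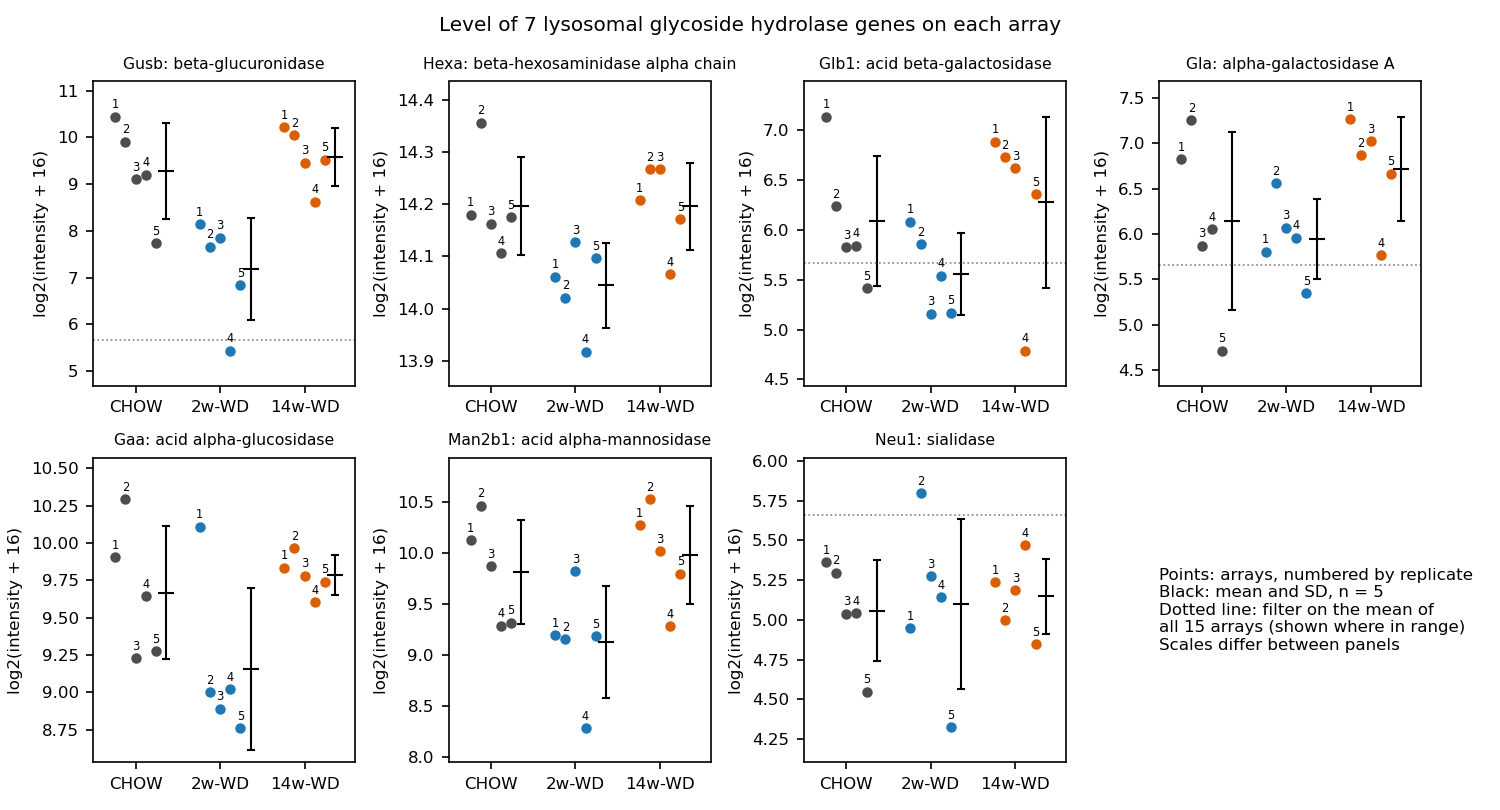
Level of each of the 7 genes on each array as log2(intensity + 16), by diet group, with replicate numbers at the points and the mean and SD of 5 arrays in black; scales differ between panels. Gusb in 2w-WD (7.19 ± 1.09) lies under every 14w-WD array, while Hexa stays between means of 14.04 and 14.20.

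Hexa, Glb1 and Gla act on glycolipids. Hexa encodes the α subunit of β-hexosaminidase, which trims GM2 ganglioside. Its intensities were 18548, 20955, 18329, 17629 and 18487 in CHOW. They were 17079, 16608, 17883, 15463 and 17500 in 2w-WD, and 18905, 19694, 19696, 17133 and 18440 in 14w-WD. The groups overlapped, with 2w-WD lowest by a small margin. The pooled SD within groups was 0.0863 log2 units against 0.470 for the median gene, and values this bright lie near the upper end of the scale, where the highest intensity of any probe set was 23187 to 30343 per array. The 2w-WD level differed from CHOW by -0.15 (SE 0.067, unadjusted p = 0.0341, limma adjusted p = 0.507), and 14w-WD from 2w-WD by 0.15 (95% interval 0.01 to 0.29, limma adjusted p = 0.126). The latter change was smaller than the 0.23 of the median gene. Between 14w-WD and CHOW the 95% interval was -0.14 to 0.14.

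Glb1 encodes β-galactosidase, which splits galactose from GM1 ganglioside and keratan sulfate. Its single probe set read 124, 59.3, 40.8, 41.3 and 26.6 in CHOW. It read 51.7, 41.8, 19.7, 30.5 and 19.9 in 2w-WD, and 102, 90.0, 82.3, 11.6 and 65.9 in 14w-WD. On 4 of 5 arrays 14w-WD lay above all of 2w-WD, and replicate 4 of 14w-WD lay below all of it. These are dim values near the filter level of 34.6. The difference between 14w-WD and 2w-WD was 0.71 (SE 0.37, 1.64-fold, limma adjusted p = 0.194). Leaving out 14w-WD replicate 4 made it 1.09 (adjusted p = 0.0306). With the bright probe set percentage as a covariate the direction turned, to -0.079. Against CHOW, the changes were -0.53 in 2w-WD (limma adjusted p = 0.616) and 0.18 in 14w-WD (adjusted p = 0.818).

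Gla encodes α-galactosidase A, which removes the end galactose of globotriaosylceramide and is deficient in Fabry disease. It read 97.1, 137, 42.4, 50.2 and 10.2 in CHOW. It read 39.8, 78.5, 51.2, 46.2 and 24.7 in 2w-WD, and 138, 101, 114, 38.4 and 85.4 in 14w-WD. The 14w-WD arrays were above all 2w-WD arrays except for replicate 4, and CHOW reached from below the 2w-WD range to just under the highest 14w-WD array. The 14w-WD level differed from 2w-WD by 0.77 (SE 0.40, 1.70-fold, limma adjusted p = 0.187), from CHOW by 0.58 (SE 0.40, adjusted p = 0.486), and 2w-WD from CHOW by -0.19 (adjusted p = 0.877). The last of these turned to 0.086 without CHOW replicate 2 and to 0.48 with the macrophage covariate, under which the difference between 14w-WD and 2w-WD was -0.036. A second probe set for Gla lay below the filter with 4.87 to 68.9 in CHOW, 11.4 to 29.5 in 2w-WD and 28.0 to 55.5 in 14w-WD, and the remaining one read 1.73 to 14.3 over all arrays.

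Gaa encodes acid α-glucosidase, which degrades glycogen in the lysosome and is deficient in Pompe disease. Its brighter probe set, 1436849_x_at, read 944, 1239, 583, 783 and 603 in CHOW. It read 1089, 496, 458, 503 and 418 in 2w-WD, and 898, 983, 864, 762 and 840 in 14w-WD. The 14w-WD arrays were close together (9.79 ± 0.13, SD, n = 5), and 4 of 5 arrays of 2w-WD lay below all of them, with replicate 1 above. The difference between 14w-WD and 2w-WD was 0.63 (SE 0.31, 1.55-fold, limma adjusted p = 0.167). Leaving out 2w-WD replicate 1 made it 0.87 (adjusted p = 0.0267), and it was 0.088 after quantile normalization. Against CHOW, the changes were -0.51 in 2w-WD (limma adjusted p = 0.573) and 0.12 in 14w-WD (adjusted p = 0.862).

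The other Gaa probe set, 1419428_a_at, was dimmer and separated the western-type diet groups fully. It read 155, 81.9, 55.0, 54.7 and 31.5 in CHOW. It read 73.5, 30.2, 17.8, 33.8 and 26.3 in 2w-WD, and 137, 130, 109, 78.6 and 95 in 14w-WD. All 14w-WD arrays exceeded all 2w-WD arrays. With all 18440 probe sets above the filter tested as separate rows, an alternative chosen after seeing the data, this probe set rose by 1.33 from 2w-WD to 14w-WD (SE 0.31, 2.51-fold, limma adjusted p = 0.0182). In that fit 12.7% of probe sets passed, and 7.33% were higher in 14w-WD without overlap. The same probe set had a change of -0.75 in 2w-WD against CHOW (limma adjusted p = 0.501) and of 0.58 in 14w-WD against CHOW (adjusted p = 0.345). The call for Gaa therefore depended on which probe set stood for the gene.

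**Figure D2:**
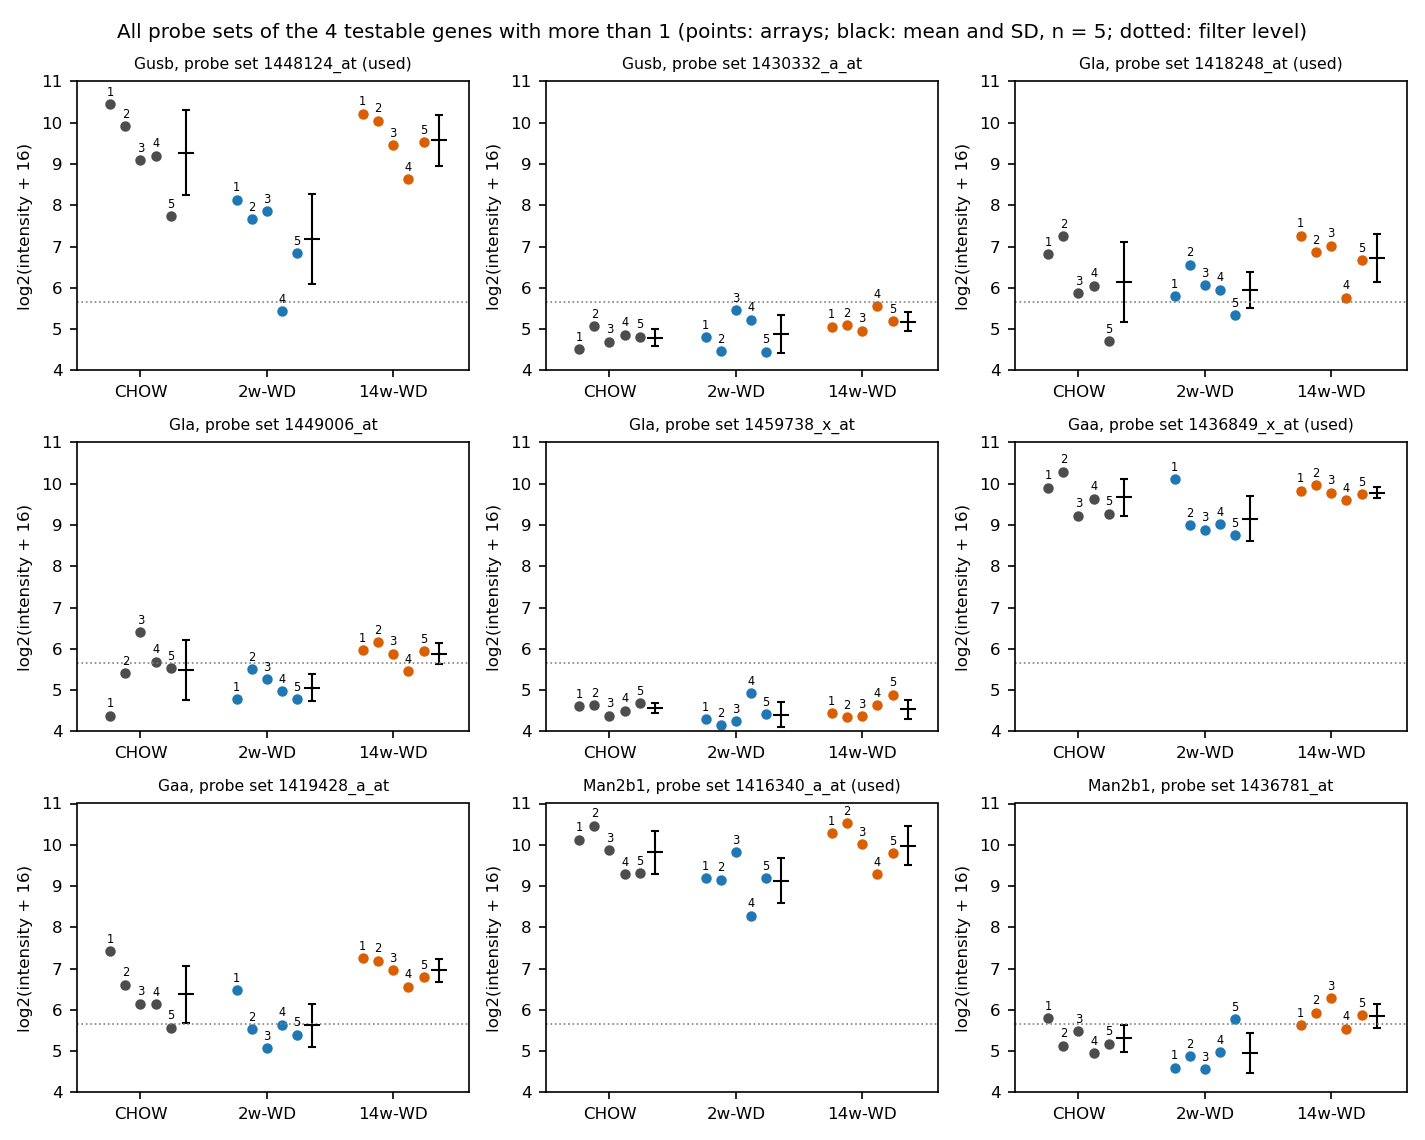
All probe sets of Gusb, Gla, Gaa and Man2b1 as log2(intensity + 16) on each array, by diet group, with the mean and SD of 5 arrays in black and the filter level of 5.66 dotted. The dimmer Gaa probe set stands at 5.63 in 2w-WD and 6.95 in 14w-WD with no overlap, while the brighter one, used for the gene, overlaps through 2w-WD replicate 1.

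Man2b1 and Neu1 act on glycoproteins. Man2b1 encodes lysosomal α-mannosidase, which cleaves mannose from N-glycans. It read 1101, 1398, 921, 609 and 622 in CHOW. It read 571, 555, 888, 296 and 568 in 2w-WD, and 1223, 1459, 1023, 607 and 874 in 14w-WD. The groups overlapped through 2w-WD replicate 3, the highest of its group, and 14w-WD replicates 4 and 5. The 14w-WD level differed from 2w-WD by 0.85 (SE 0.35, 1.80-fold, unadjusted p = 0.0247, limma adjusted p = 0.106). The 2w-WD level differed from CHOW by -0.68 (SE 0.35, limma adjusted p = 0.530), and 14w-WD from CHOW by 0.17 (adjusted p = 0.820). Its second probe set was below the filter, at 14.9 to 39.6 in CHOW, 7.75 to 38.7 in 2w-WD and 30.7 to 61.5 in 14w-WD.

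Neu1 encodes the lysosomal sialidase, which works in a complex with β-galactosidase and cathepsin A. It lay below the filter on all 3 of its probe sets and was not tested. The brightest read 7.41 to 25.2 in CHOW, 4.03 to 39.6 in 2w-WD and 12.8 to 28.3 in 14w-WD, with log2 means of 5.06, 5.10 and 5.15. The groups overlapped at this low level, and a reading this low does not show that the transcript was absent. Its partner in the complex, Ctsa, which encodes cathepsin A, had a change of 0.67 between 14w-WD and 2w-WD (limma adjusted p = 0.0969).

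Counted together, 0 of 6 tested members passed in 2w-WD against CHOW, where 0% of all 11925 genes passed, and 2 of 6 (Gusb and Hexa) had an unadjusted p under 0.05, against 9.76% of genes. All 6 changes were below 0, as 61.2% of all genes were, and 0 of 6 were lower without overlap, against 0.83% of genes. The members' median change was -0.52, against -0.10 for all genes. In 14w-WD against CHOW, 0 of 6 passed, where 0.00839% of genes passed (1 gene), and 0 of 6 had an unadjusted p under 0.05, against 15.9% of genes. The median was 0.18 for the members and 0.16 for all genes. In 14w-WD against 2w-WD, 1 of 6 (Gusb, higher) passed, where 11.2% of genes passed, 10.1% as higher and 1.15% as lower. In all, 3 of 6 (Gusb, Hexa and Man2b1) had an unadjusted p under 0.05, as 32.1% of all genes did. All 6 changes were above 0, as 65.2% of all were. The members' median was 0.74 against 0.23 for all genes, and only Gusb was higher without overlap, as 7.06% of genes were. The 2w-WD arrays enter both comparisons in which the members' medians left that of all genes, so these are not independent readings.

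**Figure D3:**
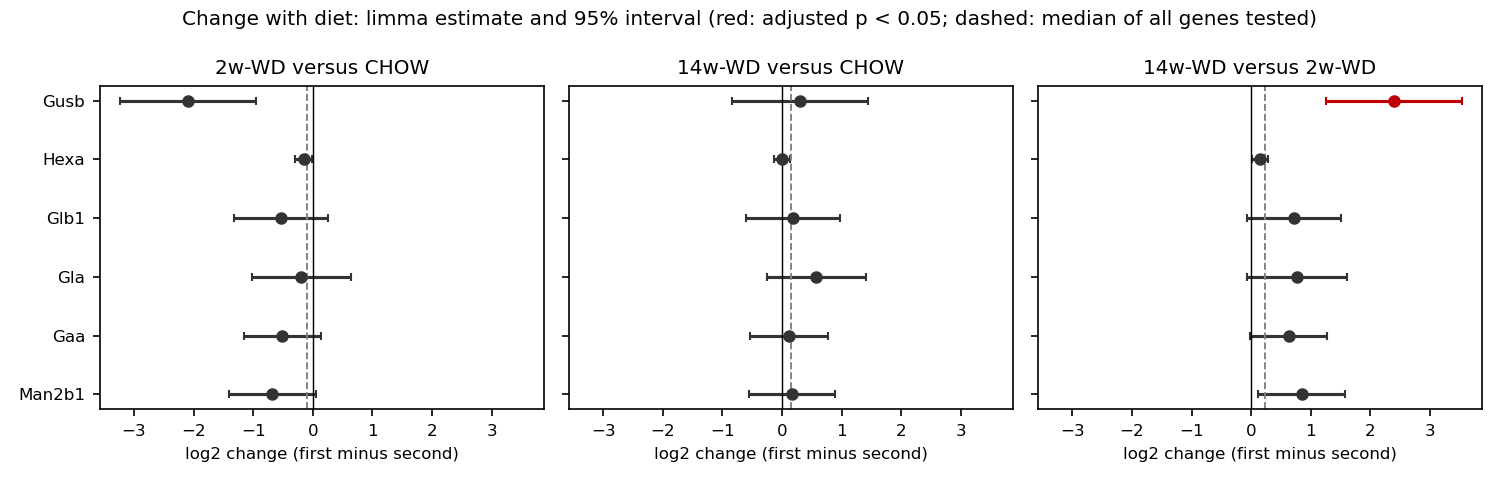
Log2 change of the 6 tested genes in each of 3 comparisons (limma estimate, 95% interval, all 15 arrays), with the median of all genes tested dashed. Gusb in 14w-WD versus 2w-WD (2.39, interval 1.25 to 3.53) is the only estimate past the adjusted threshold, and in 14w-WD versus CHOW every interval covers 0.

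Single arrays stood out across the members. Replicate 4 of 14w-WD was the lowest of its group for 6 of 6 tested members, against 34.2% of all tested genes, and it had the lowest summed macrophage level of its group, 89306. Replicate 4 of 2w-WD was the lowest for 3 of 6, against 36.8% of genes, and had the lowest summed macrophage level of all arrays, 78742. Replicate 5 of CHOW was the lowest of its group for 3 of 6, against 28.5% of genes, and also had the lowest macrophage sum there, 82325. Replicate 2 of CHOW was the highest of its group for 4 of 6, against 13.9% of genes, with the highest macrophage sum of all, 117453. Other arrays did not pair in this way on the summed level. Replicate 1 of 2w-WD was the highest of its group for 3 of 6, against 44.9% of genes. Its macrophage sum, 84363, was the lowest there after replicate 4, while its mean log2 macrophage level, 11.20, lay between replicates 2 (11.08) and 5 (11.45). Replicate 1 of 14w-WD was the highest for 3 of 6, against 21.5% of genes. Its macrophage sum, 106331, was under the 107557 of replicate 2, but its mean log2 macrophage level, 11.95, was the highest of its group. The mean log2 level of the macrophage list had CHOW at 11.65 ± 0.32 (SD, n = 5), 2w-WD at 11.24 ± 0.26 and 14w-WD at 11.73 ± 0.26, lowest in 2w-WD as for the hydrolases. Its 13 tested markers did not move alike. In 2w-WD against CHOW 12 changes were below 0, with C1qa at -1.34 and C1qc at -1.22. Adgre1 (-0.021), Csf1r (-0.010), Fcer1g (-0.056) and C1qb (0.029) changed little. In 14w-WD against 2w-WD 11 of the 13 changes were above 0 and 1 passed (Tyrobp, higher by 0.38). Csf1r (-0.044) and Mrc1 (-0.26) were below 0 there. With the mean of the macrophage list as a covariate, 0 of 6 members and 0 of 11925 genes passed in 14w-WD against 2w-WD. Heart muscle markers had 0 of 16 past the test there, and smooth muscle markers 1 of 6 (Mylk, higher by 2.09). Fibroblast markers had 2 of 7 past it, both higher (Pdgfra by 1.95, limma adjusted p = 0.0291, and Col1a1 by 1.05, adjusted p = 0.0402), and all 7 changes were above 0. The fibroblast list had CHOW at 11.40 ± 0.33, 2w-WD at 11.08 ± 0.39 and 14w-WD at 11.80 ± 0.28, also lowest in 2w-WD. The same held for smooth muscle (8.11, 7.35 and 8.08 in CHOW, 2w-WD and 14w-WD), endothelium, cartilage, T and NK cells and B cells. It did not hold for the heart muscle, neutrophil, dendritic cell and adipocyte lists. The part of the fibroblast and smooth muscle lists in the values of the hydrolases was not tested. Of the tested markers of neutrophils, dendritic cells, B cells, T and NK cells, endothelium and cartilage, 0 passed by limma and 2 had an unadjusted p under 0.05, and of 2 adipocyte markers 1 was lower (Lep).

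**Figure D4:**
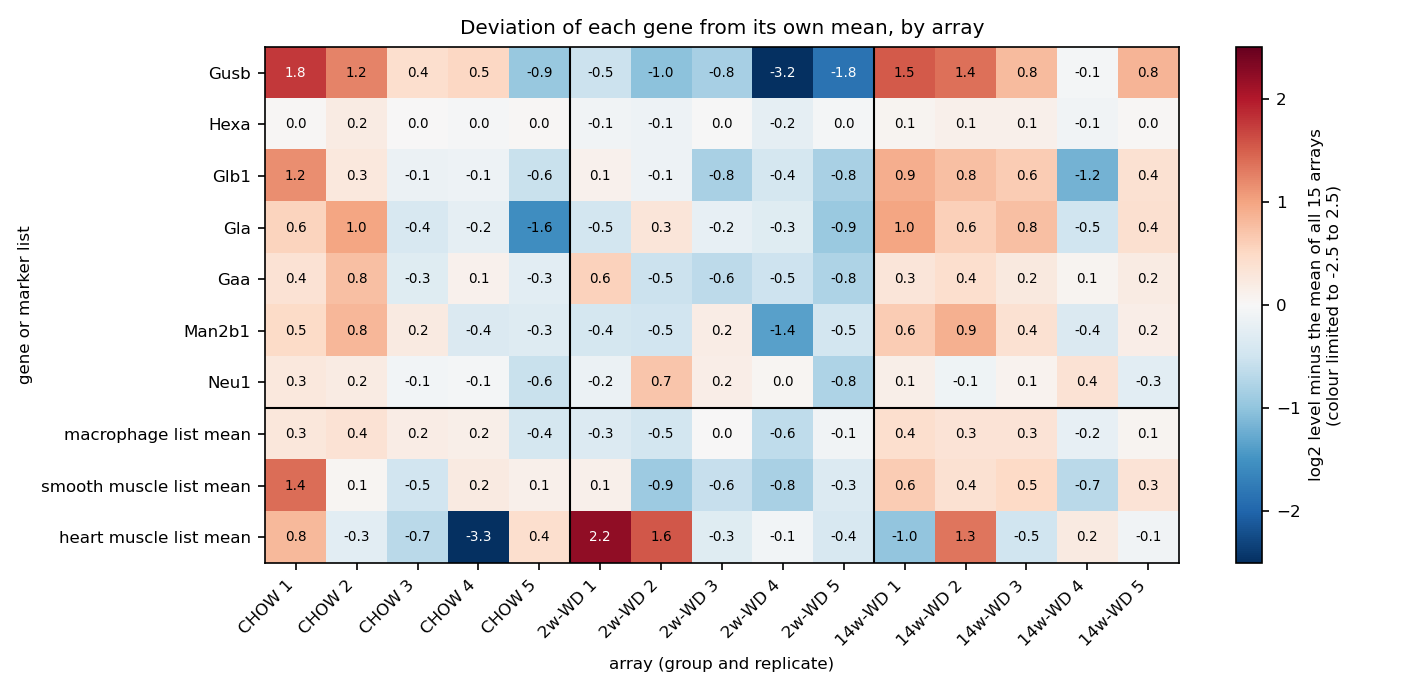
Log2 level of each of the 7 genes and the mean of 3 marker lists on each of the 15 arrays, minus the mean over all arrays, in colour and printed. The 2w-WD columns are mostly below the mean for the hydrolases and for the macrophage and smooth muscle lists, whose group means were 11.24 and 7.35 there. Heart muscle markers peak on 2w-WD replicates 1 and 2.

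Genes with the pattern most like each member over the 15 arrays were found by Pearson correlation of log2 levels against the 11924 other tested genes. These values are descriptions, since all genes share the arrays, their brightness and the 3 groups. Gusb was most like Mak16 (r = 0.959), Minpp1 (0.949) and Agap1 (0.942). Hexa was most like Ahnak2 (0.948), Man2b1 (0.916) and Gpx1 (0.901), so that 1 of its 3 nearest genes was another member. Man2b1 was most like Serpinb6a (0.937), Gpx1 (0.935) and Timp2 (0.934), and shared Gpx1, a glutathione peroxidase gene, with Hexa. Glb1 was most like Lap3 (0.951), Kars (0.924) and Efcab1 (0.916). For Gla these were Cyp4f18 (0.954), Rpgrip1 (0.907) and Apobec1 (0.889), and for Gaa they were Pnkd (0.948), Fam98a (0.921) and Mras (0.901).

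In 4 related lists of the glycan breakdown pathway, 7 genes passed between 14w-WD and 2w-WD, all higher in 14w-WD. Over all genes tested, 10.1% were called higher and 1.15% lower in this comparison, so most calls of any kind were in this direction. Of 16 other lysosomal glycosidases, 11 had a probe set, 9 were tested and 3 rose from 2w-WD to 14w-WD (10.1% of all genes did), with 0 lower and a median of 1.24 against 0.23 for all genes. Galc, the galactosylceramidase deficient in Krabbe disease, rose from intensities of 58.1 to 495 in 2w-WD to 372 to 820 in 14w-WD (1.72, SE 0.45, limma adjusted p = 0.0270). Manba, the β-mannosidase that follows α-mannosidase on N-glycans, rose from 45.8 to 106 in 2w-WD to 133 to 305 without overlap (1.47, SE 0.41, adjusted p = 0.0340). Hyal2, a hyaluronidase, rose by 1.45 (SE 0.43, adjusted p = 0.0397).

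Of 10 sulfatases and other genes that serve glycan breakdown (Sumf1 and Hgsnat among them), 9 were tested and 2 rose, where 10.1% of all genes did. The list's median was 0.52, against 0.23 for all genes. Arsg (-0.52, limma adjusted p = 0.269) and Arsb (-0.21, adjusted p = 0.467), both sulfatase genes, had changes below 0. Ids, the iduronate sulfatase that precedes glycosidases on heparan and dermatan sulfate, rose from 119 to 914 in 2w-WD to 1047 to 1228 in 14w-WD without overlap (1.74, SE 0.44, limma adjusted p = 0.0260). Aga, which splits the link between glycan and asparagine, rose by 1.59 (SE 0.46, adjusted p = 0.0365). All 4 partner genes were tested and 1 rose, where 10.1% of all genes did. It was Psap, the precursor of the saposins that present lipids to Gla and other hydrolases. Psap read 11244 to 15673 in 2w-WD and 15736 to 18737 in 14w-WD (0.29, SE 0.088, adjusted p = 0.0421). Its change was only 0.064 above that of the median gene, and its values, like those of Hexa, lie near the upper end of the scale. Gm2a, the activator that presents GM2 to hexosaminidase, had a change of 0.11 (adjusted p = 0.736). Of 10 genes for delivery to the lysosome, by mannose 6-phosphate or by other receptors (Sort1 and Scarb2), 9 were tested and 1 rose. That is a share near that of all genes, and the list's median was 0.39. The gene that rose was Gnptab, which encodes subunits of the enzyme that makes the tag, at 28.0 to 106 in 2w-WD and 95 to 304 in 14w-WD (1.50, SE 0.34, adjusted p = 0.0181). In both comparisons with CHOW, 0 genes of these 4 lists passed. In the order above, the lists' medians against CHOW were -0.58, -0.22, -0.29 and -0.09 for 2w-WD, and 0.70, 0.26, 0.06 and 0.72 for 14w-WD. None of the 7 called list genes passed with the macrophage or the bright probe set covariate, and leaving out single arrays ended each call in 3 (Gnptab) to 10 (Psap) of 15 fits. Leaving out 14w-WD replicate 1, 14w-WD replicate 3 or 2w-WD replicate 4 ended all 7 calls, with adjusted p up to 0.107 (Psap, without 14w-WD replicate 1). Leaving out 2w-WD replicates 2, 3 or 5, 14w-WD replicates 2 or 5, or, for Psap, CHOW replicates 2 or 3 ended some of them.

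**Figure D5:**
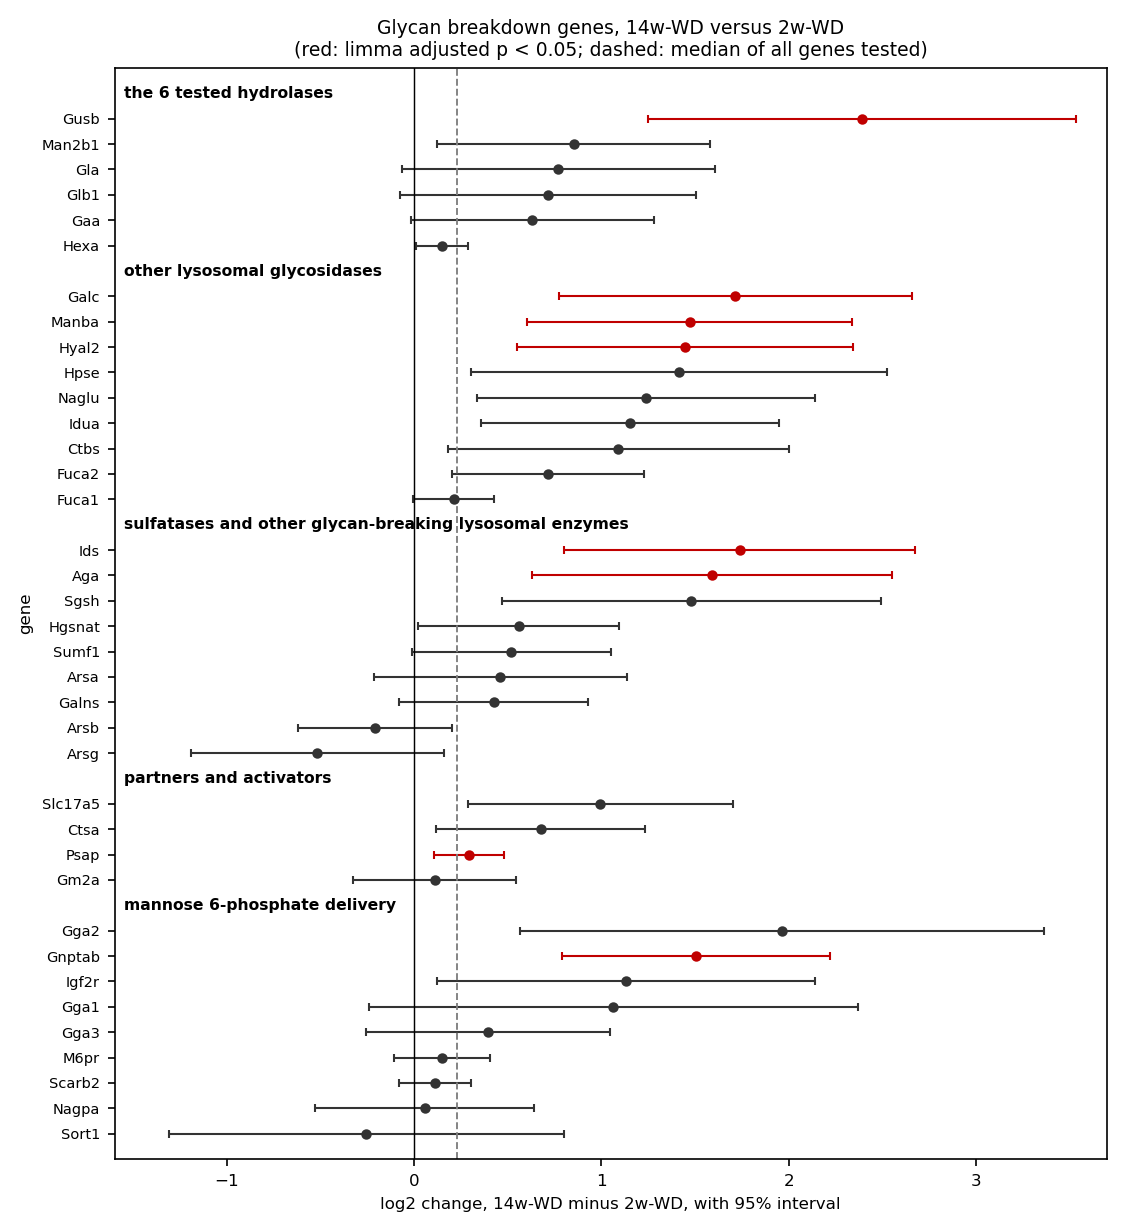
Log2 change from 2w-WD to 14w-WD with its 95% interval for the 6 tested hydrolases and the tested genes of 4 related lists, with genes past the adjusted threshold in red and the median of all genes tested (0.23) dashed. Called genes are all higher in 14w-WD, and the other glycosidases have the highest list median, 1.24.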

How the data were processed

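Foam cell RNA from 15 samples in 3 diet groups of 5 was measured on Affymetrix Mouse Genome 430 2.0 arrays. Per the labels' protocols, captured cells gave RNA by the PicoPure kit, which the RiboAmp HS kit amplified and the TURBO kit tagged with biotin. The authors deposited linear intensity values for 45037 probe sets. Their summary and normalization steps are not stated in the labels or the table. Array annotation gave 34945 probe sets 1 gene, 932 several and 9160 no name here, and 0 sample columns were left unused.

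From the deposited intensities log2(intensity + 16) was computed. Each gene was represented by its brightest probe set (9010 of 18193 genes had more than 1), and genes with a mean below the median probe set (log2 5.66, intensity 34.6) were left out. limma 3.58.1 in R 4.3.3 (lmFit, eBayes with an intensity trend, two-sided) fitted all 15 arrays, and genes were called where the p-value, adjusted by Benjamini-Hochberg over 11925 genes, was under 0.05. The test was checked on simulated data with noise drawn for each gene separately, so effects that genes share on an array were not covered. Precision is limited by the number of arrays. Some list genes are not reported here. The members and lists were chosen with earlier results of these data known. Named were all members, list genes past the threshold (at most 6 per list, or the 2 of smallest unadjusted p if none passed), and the 3 genes most like each member. Other genes of the pathway (Ctsa, Gm2a) and markers were named for their role, after their values were seen. Alternatives covered pseudocount, filter, normalization, array weights, probe set choice, covariates, groups in the fit, a replicate block and leaving out arrays. Replicate numbers were not treated as pairs, since 7 of 15 same-number pairs of arrays correlated above 0.1 in their deviations from group means, and the rule asked for all.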

Additional observations from a re-analysis of the deposited data

Results flagged for a closer look

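Of 21 sets of 5 arrays (7 genes in 3 groups), 2 held an array whose gap to its nearest neighbour, divided by the range of the group, exceeded Dixon's critical value of 0.71. Chance alone puts about 1 in 20 groups past it. Glb1 stood at a log2 level of 4.79 (intensity 11.6) on 14w-WD replicate 4, far below the other 4 arrays of that group, with a gap of 0.748 of the range. Gaa stood at 10.11 (intensity 1089) on 2w-WD replicate 1, far above the others, with a gap of 0.808 of the range. What sets these arrays apart was not tested.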

How the results depend on the processing

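With 5 arrays a group, changes of the dim genes Glb1 and Gla have standard errors of 0.37 and 0.40, and Neu1 lay below the filter. The number of members called was 0 against CHOW, for both western-type diet groups, under every setting run. In 14w-WD versus 2w-WD it was 1 of 6 tested. It became 3 of 6 with array weights, where 3839 of 11925 genes passed, and 2 of 6 with the probe set of highest variance. With the mean of all probe sets it was 3 of 5, since only 5 members were tested there, among 10163 genes. It was 0 with the percentage of bright probe sets or the macrophage mean as a covariate, where 0 of all genes passed. In 2 alternatives added after the values were known it was 2 without 3 arrays together (2w-WD replicates 1 and 4, CHOW replicate 4) and 2 with probe sets as rows. Leaving out single arrays gave 0 (without 14w-WD replicate 1 or 3) to 2 (without 2w-WD replicate 1 or 14w-WD replicate 4). Gusb ranged from 1.95 to 2.63 over those fits (adjusted p 0.00452 to 0.0594). Added calls were Glb1 and Gaa with array weights (1.07 and 0.83), Gaa and Man2b1 with the mean of probe sets (0.98 and 0.87), and Gaa with the highest variance (1.33) and without the 3 arrays (0.90). Directions reversed in 14w-WD versus CHOW for Gusb, Gaa and Man2b1 under quantile normalization (-0.032, -0.17 and -0.053), for Hexa with array weights (0.011), and for Gusb, Glb1, Gaa and Man2b1 with the bright probe set covariate (-0.55, -0.44, -0.26 and -0.064). They reversed in 14w-WD versus 2w-WD for Glb1 with the bright probe set covariate (-0.079) and for Gla with the macrophage covariate (-0.036), and for Gla in 2w-WD versus CHOW with the macrophage covariate (0.48). Leaving out single arrays reversed Hexa (-0.023 to 0.039) and Gusb (-0.090 to 0.59) in 14w-WD versus CHOW and Gla in 2w-WD versus CHOW (-0.55 to 0.086). The cause was not tested. Over all genes, 1338 were called in 14w-WD versus 2w-WD (1201 higher, 137 lower). The count was 928 after quantile normalization (640 higher, 288 lower), 3839 with array weights, 2178 without the 3 arrays, 2146 (by at least 1 probe set) with probe sets as rows, 0 with the bright probe set or the macrophage covariate, 1434 with the heart muscle covariate, and 143 (without 14w-WD replicate 1) to 3561 (without 2w-WD replicate 1) leaving out single arrays. In 14w-WD versus CHOW the count was 1, and reached 2234 with array weights, 315 without the 3 arrays and 190 leaving out single arrays. The replicate block left the members called at 1, 0 and 0, with Gusb at 2.39 (adjusted p 0.00492) in 14w-WD versus 2w-WD, and moved the genes called to 2122 there and to 20 in 14w-WD versus CHOW. In 12 of 30 checks, each among 5 candidates, an array correlated best with its own number, which hints at shared numbers from the data and not from the design. Quantile normalization ended the calls of Manba, Galc, Hyal2 and Psap (adjusted p 0.0503, 0.0681, 0.0683 and 0.0643). Testing without a filter ended those of Hyal2 and Psap (limma adjusted p 0.0538 and 0.0739), and median centring that of Psap (0.0934). The Psap call ended in 8 of 17 settings other than leaving out single arrays. Probe set choice mattered too: with the mean of all probe sets Galc and Ids each changed by 0.54, and with the probe set of highest variance Psap changed by 1.53. Of 791 gene values under an alternative, 690 kept direction and side of the threshold, 77 lost it, 8 gained it and 16 reversed.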
